A study of Mus musculus with 6 samples.

Results

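The histone and DNA modifying enzymes of mouse liver were compared between mice homozygous for the LmnaG609G knock-in allele and wild-type mice. The members were genes whose symbols begin with Hdac, Sirt, Kdm, Kmt, Kat, Setd, Ehmt, Ezh, Suv39h, Dnmt or Tet, taken from probe sets annotated with 1 symbol, with Kdm5d left out. They numbered 72 genes on 82 probe sets, of 19938 named genes on 35512 probe sets. By the sense of their activity, 33 were writers of a modification and 38 were erasers, and Dnmt3aos, an antisense transcript at Dnmt3a, was neither. Lmna encodes lamin A and lamin C of the nuclear lamina, and this allele is a point change that alters splicing of the transcript and models Hutchinson-Gilford progeria. The groups were 3 LmnaG609G/G609G mice (replicates 1, 3 and 5, here KI1, KI3 and KI5) and 3 Lmna+/+ mice (replicates 2, 4 and 6, here WT2, WT4 and WT6), each measured on its own array. Values of each genotype are listed in that order throughout. All 6 were female, 3 months old, of C57BL/6 background and without food for 6 h before death. The allele is a germline knock-in, and the RNA came from whole liver, in which fewer cells of a type and less RNA per cell cannot be told apart.

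Histones carry acetyl and methyl groups on lysines of their tails, and DNA carries methyl groups on cytosine. Writers place these groups, using acetyl-CoA or S-adenosylmethionine as donor, and erasers remove them, using zinc, NAD+, flavin or iron with 2-oxoglutarate. Acetylation and H3K4 methylation mark active genes, whereas H3K9, H3K27 and DNA methylation mark silent ones. In the liver these enzymes take part in fasting and feeding responses and in the daily rhythm of metabolism, and several also act on proteins other than histones.

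The values were array intensities on a linear scale, with array medians between 97.0 and 104. Changes are given on the log2(intensity + 16) scale as knock-in minus wild-type with the standard error (SE), which understates the change of dim genes. Each p was adjusted over the 26634 probe sets tested with limma, and a member was called at an adjusted p below 0.05. The Lmna probe set read 290, 249 and 258 in knock-in liver and 282, 267 and 362 in wild-type liver, a change of -0.17 ± 0.13 (adjusted p = 0.398). The groups overlapped, and since this probe set does not separate the splice forms it does not check the genotype.

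Of the 71 members tested, 19 were higher and 8 were lower in knock-in liver, and 44 did not pass. That was 38% called, against 25.9% of all tested probe sets and 26.7% of the 16157 tested genes that have 1 symbol. Higher calls made up 26.8% of the members, against 14.9% of all probe sets and 13% of genes. Lower calls made up 11.3%, against 10.9% of probe sets and 13.7% of genes. The median change of the members was 0.05, against 0.03 for all tested probe sets. The values of both genotypes did not overlap for 38 of the 71 tested members. Over all tested probe sets this held for 10954 of 26634 (41.1%), and for 42.9% of genes. The call was kept by 20 of the 27 called members under each of up to 17 alternative settings of the fit at the same threshold, which include leaving out each mouse in turn. Asking also for at least 1.5-fold left 13 higher and 5 lower. The other 7 calls, of Dnmt3b, Hdac2, Hdac5, Kdm4b, Kdm6a, Kmt2a and Kmt2c, were lost in at least 1 setting, as stated at each gene. Of the 9 members with several probe sets, Setd1b alone had tested probe sets of opposite sign, and none had probe sets that differed in call.

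Writers and erasers differed in how their calls were divided, with no test made of that difference. Among the 32 writers tested, 10 were higher (31.2%), 2 were lower (6.25%) and 20 did not pass, with a median change of 0.09. Among the 38 erasers, 9 were higher (23.7%), 6 were lower (15.8%) and 23 did not pass, with a median change of 0.03. Without WT4 the erasers counted 6 higher and 7 lower, so their balance turned, and without WT6 they counted 6 higher and 5 lower. Part of the contrast came from members acting on other substrates (Sirt3, Sirt4, Sirt5, Hdac6, Hdac10, Setd3, Setd4, Setd6 and Dnmt3l). With these left out, 9 of 28 writers were higher and 2 lower, and 9 of 33 erasers were higher and 4 lower. The medians were then 0.14 and 0.10. The median writer lay 0.09, 0.08 and 0.13 above its wild-type mean in KI1, KI3 and KI5, and at 0.02, 0.03 and -0.03 in WT2, WT4 and WT6. The median eraser lay at 0.01, 0.06 and 0.09 in knock-in liver and at 0.05, -0.03 and 0.00 in wild-type liver. On the deposited intensities the knock-in mice were thus above all wild-type mice for the median writer, and overlapped them for the median eraser. These values came from uncentred arrays, whose medians were 101, 104 and 104 in knock-in mice and 97.0, 101.5 and 98.0 in wild-type mice. The writers' gap, from 0.03 in WT4 to 0.08 in KI3, was narrow beside the range of array medians, 0.087 on the same scale. The order did not hold on centred arrays, since centring shifts each mouse's median by its own array median. KI3 and WT2 lay at 0.08 and 0.02, while their array medians differed by the full 0.087. Once centred, KI3 thus fell below WT2 for the median writer. With arrays centred on their medians the writers' median became 0.04 and the erasers' became -0.02.

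**Figure D1:**
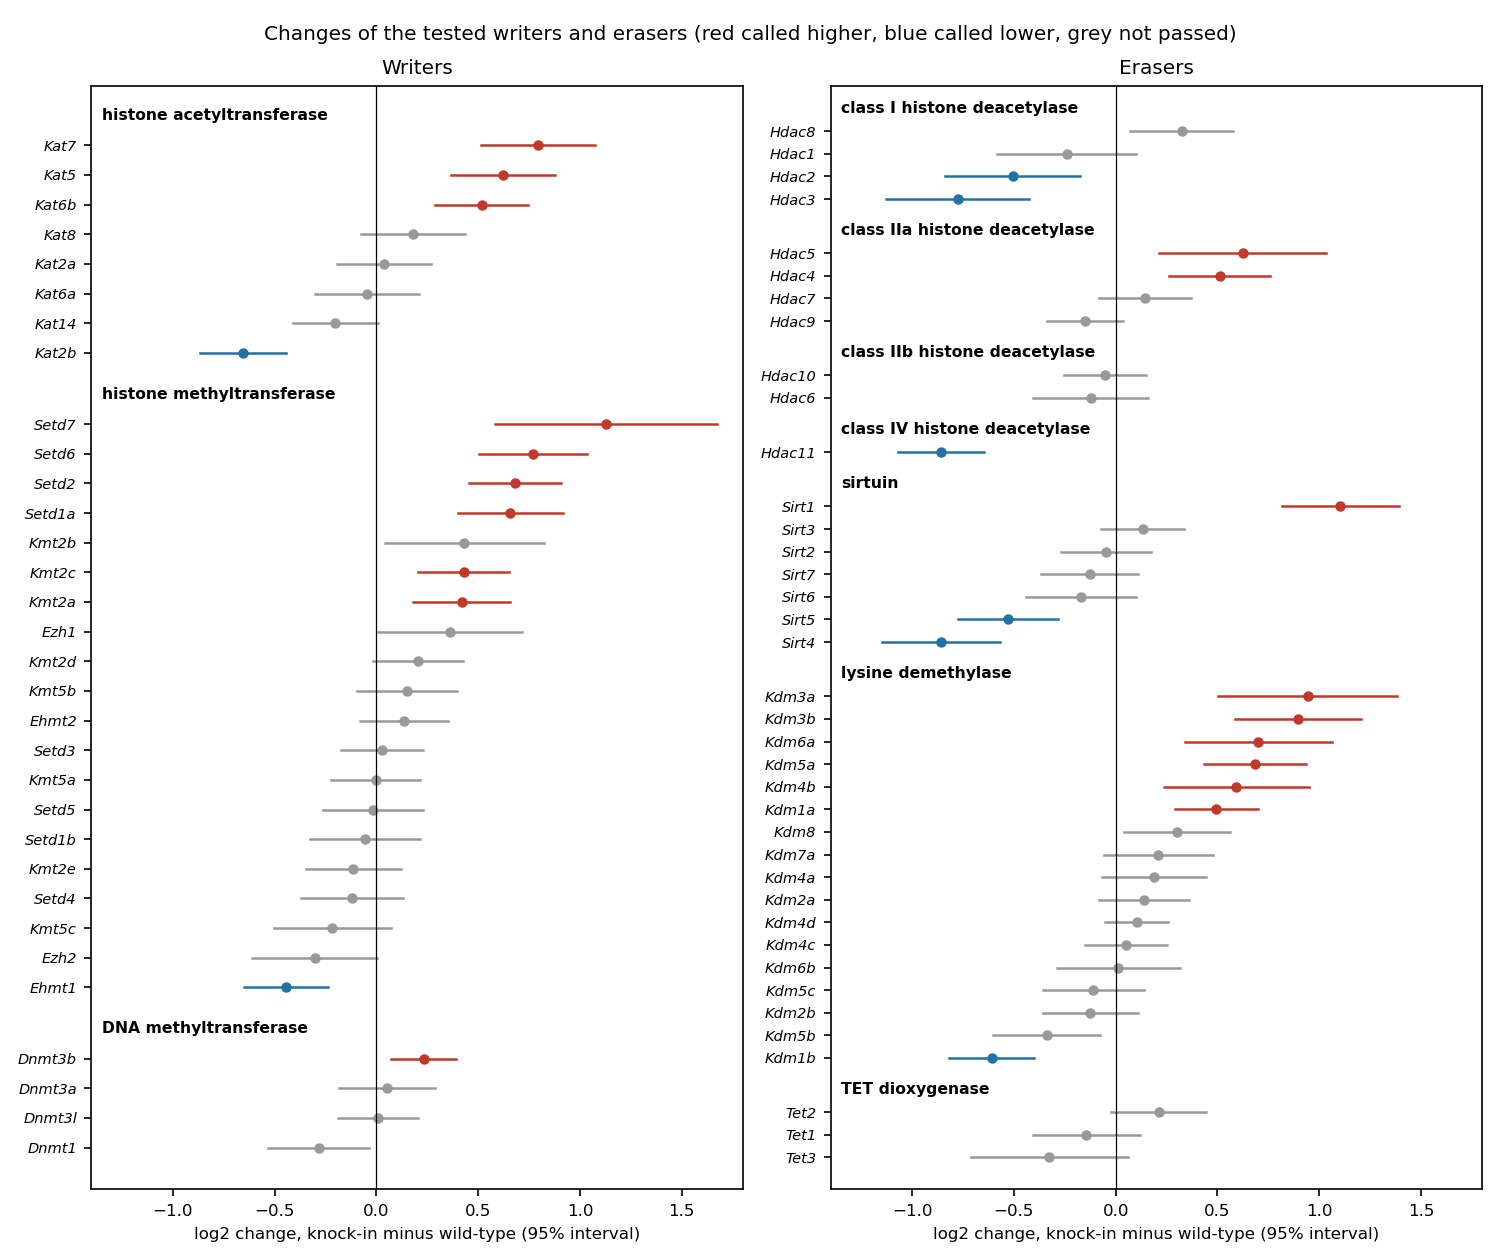
The log2 change (knock-in minus wild-type, horizontal axis) of each tested writer (left) and eraser (right) is shown with its 95% interval, 3 mice per genotype, grouped by enzyme class. Called members run from -0.86 (Hdac11) to 1.13 (Setd7), and most uncalled members lie close to 0.

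The largest rises were those of Setd7 and Sirt1, and the largest falls were those of Hdac11 and Sirt4. The bases just before the start site of these 4 genes are shown because they carried the extreme changes, and those of Kdm6a and Kat5 because, with Sirt1, they are the higher genes that hold an E-box. Promoter windows came from RefSeq (GRCm38.p6), written 5′ to 3′ on the strand of the gene and ending before the transcribed bases, and capitals mark the E-box CACGTG. The Setd7 window is chr3:51560824-51561073 (minus strand), the Sirt1 window chr10:63339036-63339285 (minus strand), the Hdac11 window chr6:91156565-91156814 (plus strand) and the Sirt4 window chr5:115484298-115484547 (minus strand). Shorter stretches are given for Kdm6a, chrX:18162518-18162574 (plus strand), and Kat5, chr19:5610245-5610310 (minus strand).
Setd7: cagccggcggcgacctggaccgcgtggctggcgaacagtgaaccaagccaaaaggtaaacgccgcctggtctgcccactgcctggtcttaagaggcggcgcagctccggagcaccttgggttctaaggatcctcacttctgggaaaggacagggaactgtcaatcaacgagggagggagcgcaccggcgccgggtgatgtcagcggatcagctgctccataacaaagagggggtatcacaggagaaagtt
Sirt1: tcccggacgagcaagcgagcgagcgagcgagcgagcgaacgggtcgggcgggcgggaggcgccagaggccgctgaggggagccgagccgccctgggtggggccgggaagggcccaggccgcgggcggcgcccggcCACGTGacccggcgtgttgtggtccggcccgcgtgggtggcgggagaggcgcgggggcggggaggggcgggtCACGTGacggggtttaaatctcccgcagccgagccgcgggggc
Hdac11: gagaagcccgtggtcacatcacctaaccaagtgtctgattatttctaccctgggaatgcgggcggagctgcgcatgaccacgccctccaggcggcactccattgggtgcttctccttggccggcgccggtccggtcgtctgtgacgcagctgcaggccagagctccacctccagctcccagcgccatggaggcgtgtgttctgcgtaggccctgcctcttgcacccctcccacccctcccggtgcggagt
Sirt4: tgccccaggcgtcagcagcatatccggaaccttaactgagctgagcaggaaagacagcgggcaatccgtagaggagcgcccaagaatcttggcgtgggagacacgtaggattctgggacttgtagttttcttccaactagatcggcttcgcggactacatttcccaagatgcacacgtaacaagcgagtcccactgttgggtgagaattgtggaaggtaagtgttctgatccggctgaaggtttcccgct
Kdm6a: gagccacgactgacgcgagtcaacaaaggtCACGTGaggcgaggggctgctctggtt
Kat5: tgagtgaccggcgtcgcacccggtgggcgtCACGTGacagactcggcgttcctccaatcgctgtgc
The Sirt1 window held the E-box at 115 and at 43 bases before the start, the Kdm6a window at 27 bases and the Kat5 window at 186 bases. The windows of Setd7, Hdac11 and Sirt4 had no match to any motif searched. The search covered both strands of 250 bases before the start, for 60 members with 87 windows. The E-box stood in 8 of these windows (9.2%) and in 6.02% of all 32851 windows. It stood in 3 of 20 windows of the higher genes, 0 of 8 of the lower genes and 5 of 58 of the uncalled genes, the last being those of Dnmt3a, Dnmt3l, Ehmt2 and Kdm4c. The ETS motif CCGGAAG was found in 9.2% of member windows and 6.91% of all windows, in 2 of 20 windows of the higher genes (Kdm3a and Setd6) and 6 of 58 of the uncalled genes (Kdm4d, Kdm7a, Setd4, Sirt3, Sirt6 and Sirt7). The other motifs were TGACGTCA (cAMP response element), GTAAACA (forkhead), TTATGTAA and TTACGTAA (D-box), and the glucocorticoid response element and NRF1 motifs. They stood in 0 to 2 member windows each. The median G and C content was 62% in member windows and 52.4% in all windows, and a match describes letters, not binding.

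Acetyltransferases transfer acetyl groups to histone lysines. Of the 8 tested, 3 rose, 1 fell and 4 did not pass, with a median change of 0.11. Kat7, the HBO1 enzyme that acetylates H3 and H4, read 1415, 1208 and 1483 in knock-in liver and 831, 822 and 696 in wild-type liver. It rose by 0.79 ± 0.12 (1.73-fold, adjusted p = 0.00362), with every knock-in mouse above every wild-type mouse. Kat5, or TIP60, which acetylates H4, H2A and DNA damage proteins, read 374, 346 and 439 against 248, 238 and 247. It rose by 0.62 ± 0.11 (1.54-fold, adjusted p = 0.00629), and its wild-type values lay within a narrow band below all knock-in values. Kat6b, the MORF enzyme, rose by 0.52 ± 0.10 (adjusted p = 0.00866). The member that fell was Kat2b, or PCAF, a transcriptional coactivator, which read 335, 318 and 319 against 533, 489 and 538. Its change was -0.66 ± 0.09 (1.58-fold lower, adjusted p = 0.00265), and the groups were far apart. Its close paralog Kat2a, or GCN5, read 481, 493 and 507 against 471, 448 and 527, a change of 0.04 ± 0.10 (adjusted p = 0.837) with overlapping groups. Kat8, the main H4K16 acetyltransferase, changed by 0.18, Kat6a by -0.04 and Kat14 by -0.20, and none of them passed.

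**Figure D2:**
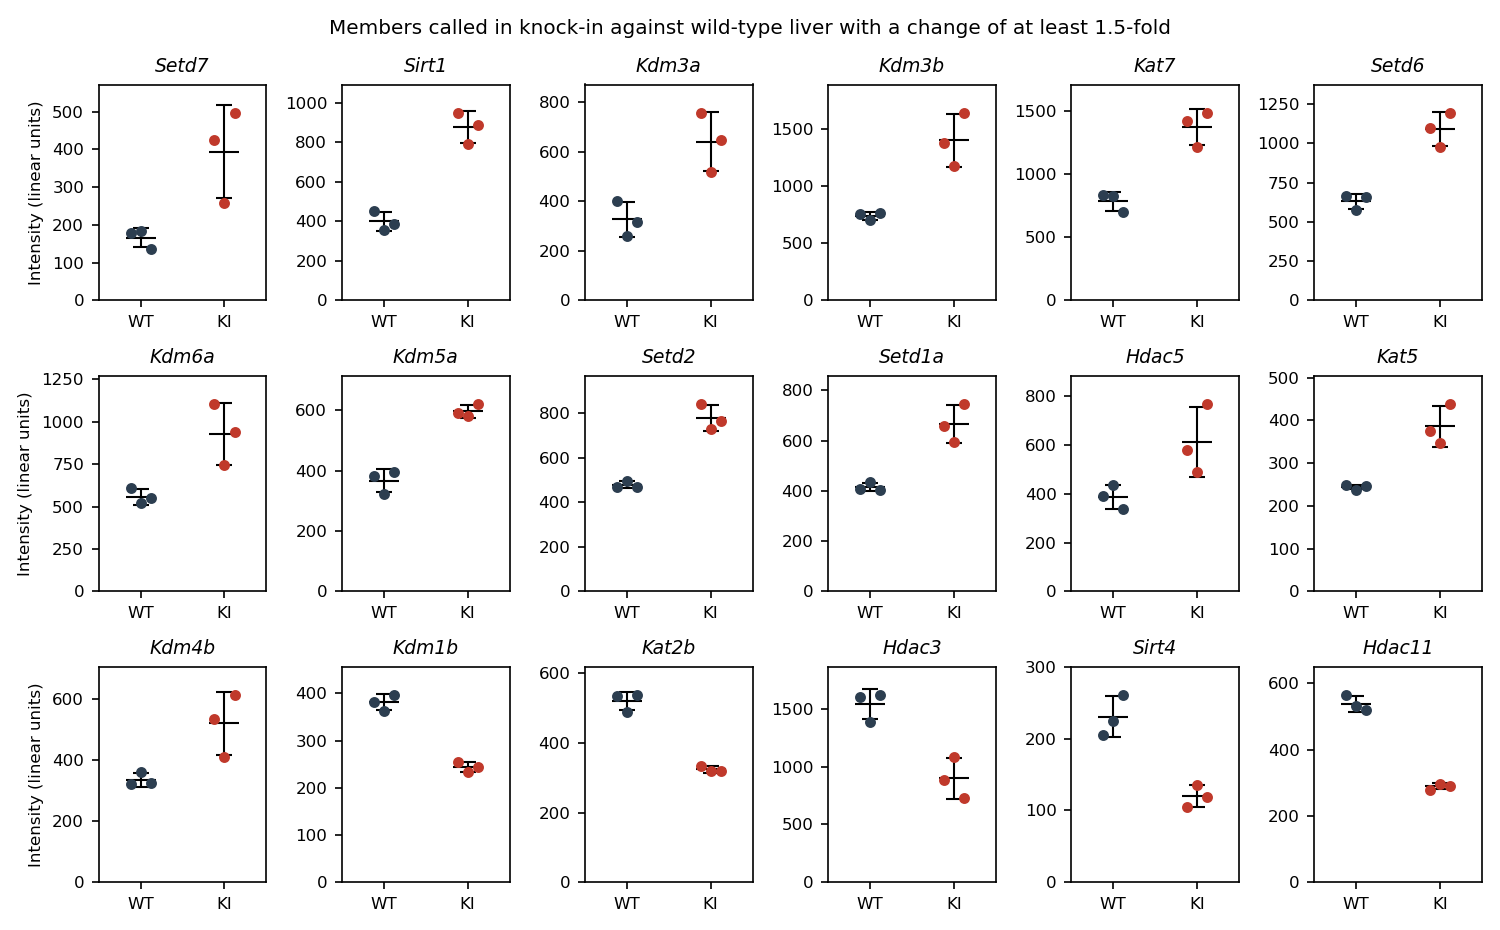
Intensity (linear units) in each wild-type (WT, dark) and knock-in (KI, red) mouse for the 18 members called with a change of at least 1.5-fold, with mean and SD bars (n = 3 per genotype). In every panel the points of both genotypes lie apart, with 13 genes higher and 5 lower in the knock-in mice, and the spread within knock-in mice is wide for Setd7 (257 to 497).

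The histone methyltransferases held the member with the largest rise. Of 20 tested, 6 rose, 1 fell and 13 did not pass, with a median change of 0.14. Setd7 monomethylates H3K4 and many other proteins, and read 425, 257 and 497 in knock-in liver against 178, 183 and 137 in wild-type liver. It rose by 1.13 ± 0.23 (2.19-fold, adjusted p = 0.0117), and only 4.12% of all tested probe sets had a larger change. KI3 was the lowest of its group and still above all wild-type mice. Setd1a, the catalytic subunit of an H3K4 methyltransferase complex, read 660, 595 and 747 against 407, 434 and 405 and rose by 0.66 ± 0.11 (1.58-fold, adjusted p = 0.00523). Its paralog Setd1b was represented by a pair of probe sets with changes of -0.06 and 0.01, of opposite sign and neither called. Kmt2a (MLL1) rose by 0.42 ± 0.10 (adjusted p = 0.0215) and Kmt2c (MLL3), an enhancer H3K4 enzyme, by 0.43 ± 0.10 (adjusted p = 0.0155). Both calls were lost without KI1 (adjusted p = 0.0855 for Kmt2a and 0.0678 for Kmt2c), without WT2 (0.0829 and 0.0634) or without WT6 (0.0692 and 0.0585), and Kmt2a also without KI5 (0.0584). Kmt2b changed by 0.43 ± 0.17 (adjusted p = 0.0994) and passed without KI3 (0.019) or with array weights (0.0313), and Kmt2d changed by 0.20 ± 0.10 (adjusted p = 0.165).

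Setd2, which trimethylates H3K36 on transcribed genes, read 843, 729 and 764 in knock-in liver and 469, 498 and 470 in wild-type liver. The rise was 0.68 ± 0.10 (1.60-fold, adjusted p = 0.00295), and its other probe set rose by 0.71 ± 0.10 (adjusted p = 0.00244). Setd6, which methylates the NF-kappaB subunit RelA, read 1100, 976 and 1195 against 663, 575 and 656. It rose by 0.77 ± 0.11 (1.71-fold, adjusted p = 0.00328), with the groups well apart. The H3K9 methyltransferase Ehmt1, or GLP, fell by 0.44 ± 0.09 on the log2 scale (1.36-fold lower, adjusted p = 0.00987). Its intensity lay between 246 and 265 in knock-in liver and between 336 and 361 in wild-type liver. Its partner Ehmt2, or G9a, read 502, 503 and 561 against 479, 477 and 463, a change of 0.14 ± 0.09 (adjusted p = 0.341). Its values did not overlap, yet the difference did not pass.

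The Polycomb methyltransferases of H3K27 did not pass. Ezh2 read 261, 299 and 225 in knock-in liver and 368, 305 and 305 in wild-type liver, a change of -0.30 ± 0.13 (adjusted p = 0.136) with the knock-in mice below the others. Ezh1, its paralog in non-dividing cells, changed by 0.36 ± 0.15 (adjusted p = 0.126) with overlapping values. The H4K20 methyltransferases Kmt5a, Kmt5b and Kmt5c changed by -0.0028, 0.15 and -0.22. Setd3, Setd4, Setd5 and Kmt2e changed by 0.03, -0.12, -0.02 and -0.11, and none of these passed. Suv39h2, an H3K9 methyltransferase, read 25, 29 and 29 against 26, 31 and 30, below the filter on dim probe sets (38.4), and was not tested.

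Of the 4 DNA methyltransferase members, Dnmt3b alone rose. This de novo enzyme went from between 72 and 75 to between 84 and 91, a rise of 0.23 ± 0.07 (1.18-fold, adjusted p = 0.0426). The call was lost when any mouse but KI3 was left out: adjusted p = 0.112 without KI1 and 0.111 without KI5, and 0.121, 0.0731 and 0.134 without WT2, WT4 and WT6. It was also lost with arrays centred on their medians (adjusted p = 0.0854), with quantile normalization (0.0811), without the filter (0.0532) or without the variance trend (0.0536). Dnmt1, the maintenance enzyme, read 175, 184 and 185 against 259, 209 and 208, a change of -0.28 ± 0.11 (adjusted p = 0.0934), all knock-in mice being below all wild-type mice. Dnmt3a, Dnmt3l (a catalytically inactive relative) and the antisense transcript Dnmt3aos changed by 0.05, 0.01 and 0.04, none of which passed. The TET dioxygenases, which oxidise methylcytosine, gave 0 calls among 3 with limma, and 0 at an unadjusted p below 0.05. Tet2 read 409, 400 and 407 against 374, 312 and 361, a change of 0.21 ± 0.10 (adjusted p = 0.172) without overlap. Tet1 changed by -0.14 and Tet3 by -0.33.

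The zinc-dependent histone deacetylases had a median change of -0.12 over 11 members, of which 2 rose and 3 fell. Without KI1, KI5, WT2 or WT6 the counts were 1 and 2, and without WT4 they were 1 and 3. In class I, the nuclear enzymes of corepressor complexes, 2 of 4 fell. Hdac3, the deacetylase of the NCoR and SMRT corepressors, read 884, 1081 and 732 in knock-in liver and 1603, 1387 and 1620 in wild-type liver. Its change was -0.78 ± 0.15 (1.71-fold lower, adjusted p = 0.00936), with no overlap. Hdac2 fell by 0.51 ± 0.14 on the log2 scale (adjusted p = 0.0364), from between 378 and 465 to between 250 and 350. That call was lost without KI1 (adjusted p = 0.104) or KI5 (0.0932), without WT2 (0.119) or WT6 (0.108), and with no filter (0.0536). Its paralog Hdac1 read 689, 701 and 595 against 877, 635 and 858, a change of -0.24 ± 0.15 (adjusted p = 0.286) with overlapping values. Hdac8 read 254, 223 and 253 against 216, 174 and 185. Its change of 0.32 ± 0.11 (adjusted p = 0.0671) was opposite in sign to the rest of the class and did not pass.

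Class IIa enzymes, which shuttle between nucleus and cytoplasm under phosphorylation, had 2 of 4 members higher. Hdac5 read 580, 488 and 769 in knock-in liver and 389, 434 and 338 in wild-type liver, and rose by 0.62 ± 0.18 (1.54-fold, adjusted p = 0.0367). That call was lost without any mouse but KI3: adjusted p = 0.0923 without KI1 and 0.0741 without KI5, and 0.0936, 0.0547 and 0.118 without WT2, WT4 and WT6. Centring the arrays (0.0514), quantile normalization (0.052) or no filter (0.057) also ended it. Hdac4 was called on both of its probe sets, which rose by 0.51 ± 0.11 (adjusted p = 0.012) and 0.72 ± 0.14 (adjusted p = 0.00878). Hdac7 and Hdac9 changed by 0.15 and -0.15 without passing. Hdac6 and Hdac10, the class IIb enzymes that act largely on cytoplasmic substrates, changed by -0.12 and -0.05 without passing. Hdac11, the sole class IV member, read 280, 298 and 292 against 566, 532 and 519. Its change of -0.86 ± 0.09 (1.81-fold lower, adjusted p = 0.00107) was the largest fall of any member, with both groups tightly spaced and far apart.

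Sirtuins are deacylases that consume NAD+. Of the 7, Sirt1 rose, Sirt4 and Sirt5 fell and 4 did not pass. Sirt1, a nuclear deacetylase of histones and metabolic transcription regulators, read 950, 793 and 890 in knock-in liver and 454, 358 and 389 in wild-type liver. It rose by 1.10 ± 0.12 (2.15-fold, adjusted p = 0.00128), and only 4.32% of all tested probe sets changed more. The lowest knock-in mouse lay well above the highest wild-type mouse. Sirt4, a mitochondrial sirtuin, read 105, 136 and 119 against 205, 225 and 261, a change of -0.86 ± 0.12 (1.81-fold lower, adjusted p = 0.0031). Sirt5, the mitochondrial desuccinylase, fell by 0.53 ± 0.11 on the log2 scale (1.44-fold lower, adjusted p = 0.0102), from between 218 and 250 to between 143 and 170. The third mitochondrial sirtuin, Sirt3, read 1708, 1828 and 1822 against 1643, 1533 and 1710, a change of 0.13 ± 0.09 (adjusted p = 0.324) with overlap. Sirt2, which is mainly cytoplasmic, and the nuclear Sirt6 and Sirt7 changed by -0.05, -0.17 and -0.13 without passing.

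Lysine demethylases gave 6 higher calls, 1 lower call and 10 that did not pass among 17, with a median change of 0.19 (0.12 without WT6). Without WT4 the counts were 4 higher and 2 lower. Kdm3a, which removes H3K9 methylation and is induced by hypoxia, read 757, 518 and 647 in knock-in liver and 402, 260 and 318 in wild-type liver. It rose by 0.94 ± 0.19 (1.92-fold, adjusted p = 0.0105). Its paralog Kdm3b read 1378, 1179 and 1641 against 753, 699 and 763 and rose by 0.90 ± 0.13 (1.86-fold, adjusted p = 0.0033). Both genes thus had all knock-in mice above all wild-type mice, by a like amount. Kdm4b, a demethylase of H3K9 and H3K36, read 535, 409 and 613 against 320, 360 and 324, a rise of 0.59 ± 0.15 (1.51-fold, adjusted p = 0.0262). That call was lost without any mouse but KI3: adjusted p = 0.0902 without KI1 and 0.0649 without KI5, and 0.0854, 0.051 and 0.0819 without WT2, WT4 and WT6. Kdm4a, Kdm4c and Kdm4d changed by 0.19, 0.05 and 0.10 without passing.

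Kdm6a, or UTX, an X-linked demethylase of H3K27, read 1106, 742 and 937 in knock-in liver and 610, 518 and 548 in wild-type liver. It rose by 0.70 ± 0.15 (1.63-fold, adjusted p = 0.0148), a call lost without WT4 (0.0512) or WT6 (0.0502). Its paralog Kdm6b, or JMJD3, changed by 0.01. Kdm5a, a demethylase of H3K4, read 590, 581 and 622 against 384, 323 and 395 and rose by 0.68 ± 0.11 (1.61-fold, adjusted p = 0.00418). Its paralog Kdm5b read 261, 236 and 271 against 368, 292 and 327, a change in the opposite direction of -0.34 ± 0.11 that did not pass (adjusted p = 0.0649). It passed without WT4 (adjusted p = 0.0495), with array weights (0.0343), quantile normalization (0.0404), the filter at the 50th percentile (0.0485) or only probe sets with 1 symbol (0.0489). Kdm5c changed by -0.11.

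The flavin-dependent demethylases were called in opposite directions. Kdm1a, or LSD1, which acts on H3K4 in the CoREST complex, went from between 280 and 286 to between 386 and 420, a rise of 0.49 ± 0.09 (1.41-fold, adjusted p = 0.00639). Kdm1b, or LSD2, read 254, 234 and 244 in knock-in liver and 382, 363 and 397 in wild-type liver, a change of -0.61 ± 0.09 (1.53-fold lower, adjusted p = 0.00326). Neither gene had overlapping groups. Of the remaining demethylases, Kdm8 read 169, 146 and 192 against 141, 135 and 125, a change of 0.30 ± 0.11 (adjusted p = 0.0892) without overlap, and it passed without KI3 (0.032) or with array weights (0.037). The H3K36 demethylases Kdm2a and Kdm2b changed by 0.14 and -0.12 and Kdm7a by 0.21, and none passed.

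Set out by the mark acted on, with each enzyme counted at 1 mark only, higher calls lay on both sides for acetyl-lysine and H3K4. Counted so, they lay on a single side for H3K9, H3K27, H3K36 and DNA cytosine. For H4K20, which had 3 writers and no eraser here, they lay on neither. For acetyl-lysine, 3 writers rose and 1 fell among 8, while 3 erasers rose and 5 fell among 18, with medians of 0.11 and -0.12. The writers' median was 0.05 without WT4 and the erasers' was -0.08 without KI3. Those 18 erasers include the mitochondrial Sirt3, Sirt4 and Sirt5 and the largely cytoplasmic Hdac6 and Hdac10. Sirt4 and Sirt5 are among the 5 that fell. Without members acting on other substrates, 9 erasers of all marks were higher and 4 lower of 33, with a median of 0.10. H3K4 writers had 4 of 7 higher and 0 lower, with a median of 0.43, and the H3K4 erasers had 2 of 5 higher and 1 lower, with a median of -0.11, which lay between -0.17 without WT4 and -0.05 without WT6. Without KI1, WT2 or WT6, the H3K4 writers called were 2. For H3K9, 0 of 2 tested writers rose and 1 fell, while 3 of 6 erasers rose and 0 fell, with medians of -0.15 and 0.39. The Kdm4 enzymes are counted here, although they also act on H3K36. For H3K27, limma called 0 of 2 writers (1 at an unadjusted p below 0.05, Ezh1) and 1 of 2 erasers, which became 0 without WT4 or WT6. The H3K36 writer Setd2 rose and 0 of the 2 erasers counted at that mark passed. With Kdm4b, counted at H3K9, added there, higher calls would lie on both sides for H3K36. For DNA cytosine, 1 of 4 writers and 0 of 3 erasers were called, and the writer Dnmt3b was lost as stated above. The H3K4 erasers called lower were 2 without WT4, Kdm1b and Kdm5b. These are transcript levels, and the marks themselves were not measured.

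**Figure D3:**
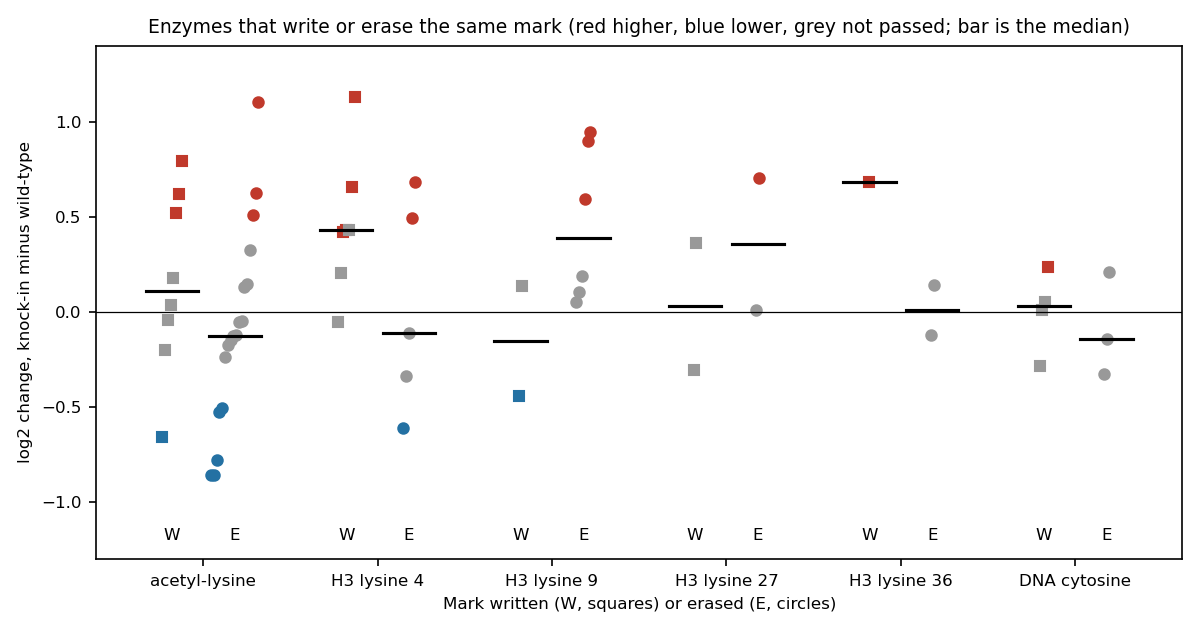
The log2 change (knock-in minus wild-type, vertical axis) of each tested member, arranged by the mark it writes (W, squares) or erases (E, circles), with called members in red or blue and the group median as a bar. The bar of the H3K4 writers is at 0.43 and that of the H3K9 erasers at 0.39, while the bar of the acetyl-lysine erasers is at -0.12.

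Paralogs that share a substrate were set against each other within each array, since a ratio within an array does not depend on its overall scale. With 3 mice per genotype an exact permutation test cannot go below 0.1, so the ratios are described without a test. The log2 ratio of Kdm1a over Kdm1b was 1.10 higher in knock-in than in wild-type liver. Relative to the wild-type mean it lay at 1.09, 1.09 and 1.13 in knock-in liver and at 0.00, 0.07 and -0.08 in wild-type liver. Both genes were already called in opposite directions without overlap, so the wide gap restates their changes and adds no separate support. The ratios of Setd1a over Setd1b (0.71), Kat2a over Kat2b (0.69) and Kdm6a over Kdm6b (0.69) were also higher without overlap. The ratio of Ehmt1 over Ehmt2 changed by -0.58 and that of Kat6a over Kat6b by -0.56, again without overlap. In each of these pairs a single paralog was called (Setd1a, Kat2b, Kdm6a, Ehmt1 and Kat6b). These ratios thus largely restate the change of that gene and add no separate support. Ratios that overlapped were those of Kdm3a over Kdm3b (0.05), Kmt2a over Kmt2b (-0.01), Hdac4 over Hdac5 (-0.11), Ezh1 over Ezh2 (0.67) and Kmt5b over Kmt5c (0.37). Smaller shifts without overlap were seen for Hdac1 over Hdac2 (0.27), Kdm2a over Kdm2b (0.26), Kmt2c over Kmt2d (0.23) and Dnmt3a over Dnmt3b (-0.18). In all, 10 of 15 pairs had no overlap, and the share among other gene pairs was not computed.

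**Figure D4:**
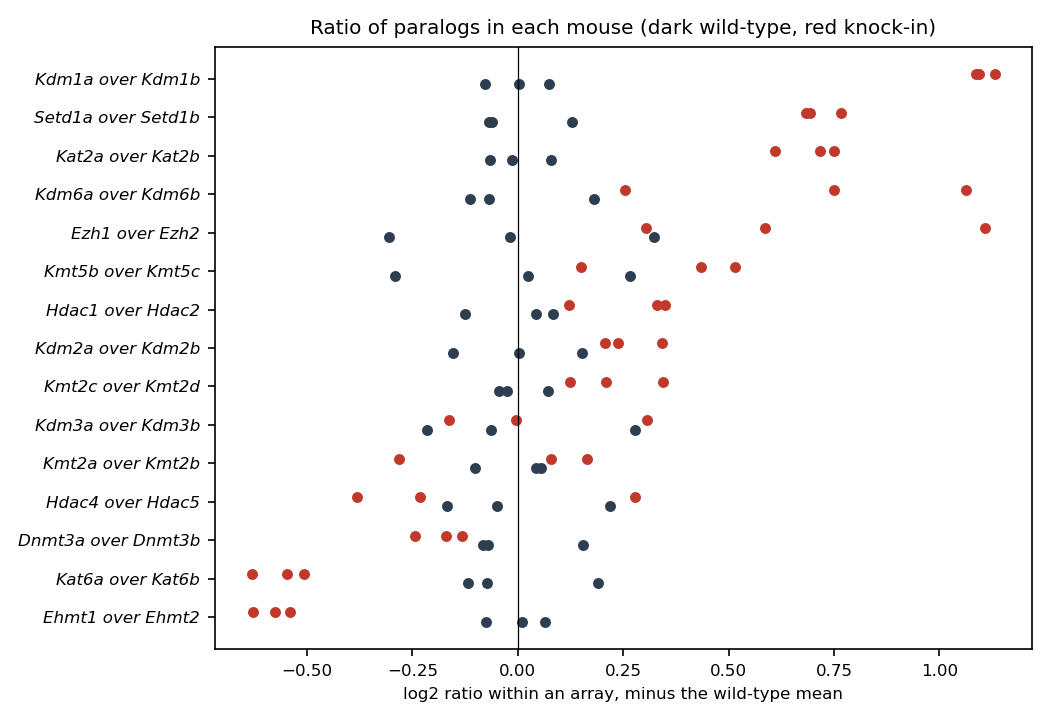
The log2 ratio of each of 15 paralog pairs within an array, minus the wild-type mean (horizontal axis), for each wild-type (dark) and knock-in (red) mouse. The Kdm1a over Kdm1b ratio is between 1.09 and 1.13 in knock-in mice, and the Kdm3a over Kdm3b ratio overlaps around 0.

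Writers whose names lie outside the rule gave 9 higher and 2 lower of 24 tested, with a median of 0.13. These were 37.5% and 8.33%, against 14.9% higher and 10.9% lower of all tested probe sets. Setdb2, a predicted H3K9 methyltransferase, read 6124, 5343 and 5780 in knock-in liver and 361, 477 and 1518 in wild-type liver, a rise of 3.13 ± 0.46 (8.75-fold, adjusted p = 0.00332). WT6 was the highest of its group and still far below the knock-in mice. The coactivator acetyltransferase Crebbp rose by 0.47 ± 0.08, the arginine methyltransferase Prmt1 by 0.57 ± 0.10 and Clock, the circadian regulator, by 0.67 ± 0.12. The count of lower calls was 1 without WT4 and 0 without KI1, KI5, WT2 or WT6, where 6 or 7 were higher. The list of erasers outside the rule, which also holds protein hydroxylases, gave 3 higher and 1 lower of 8 (37.5% and 12.5%). Hif1an, an asparaginyl hydroxylase, rose by 0.57 ± 0.10 and Jmjd1c, a relative of Kdm3a, by 0.48 ± 0.09, while the histidyl hydroxylase Riox2 changed by -0.59 ± 0.11. Riox1 rose by 0.45 ± 0.11, a call lost without any mouse but KI3 (adjusted p = 0.0545 to 0.0826).

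Partner subunits of the writers gave 11 higher and 3 lower of 32 tested, with a median of 0.09 (0.06 without KI1 and 0.13 without WT2). These were 34.4% and 9.38%, against 14.9% higher and 10.9% lower of all tested probe sets. Ing3, a subunit of the Kat5 complex, read 827, 605 and 762 against 292, 325 and 268 and rose by 1.26 ± 0.14 (2.39-fold, adjusted p = 0.00128). Ep400, the ATPase of the same complex, rose by 0.65 ± 0.10, Ing5 of the Kat7 complex by 0.62 ± 0.11 and Wdr5, shared by H3K4 methyltransferase complexes, by 0.60 ± 0.11. Without KI1, KI5, WT2 or WT6, 0 were lower and 7 to 9 were higher, and the count of lower calls was 2 without WT4 and 6 without KI3. Partner subunits of the erasers gave 8 higher (30.8%) and 3 lower (11.5%) of 26, with a median of 0.13 (0.08 without KI1 and 0.19 without KI3). Chd3, an ATPase of the NuRD deacetylase complex, read 398, 426 and 385 against 1111, 835 and 944, a change of -1.22 ± 0.12 (2.32-fold lower, adjusted p = 0.000996). Ogt, the O-GlcNAc transferase that binds TET proteins and Sin3a, changed by -0.74 ± 0.13, and Gatad2b and Brms1 rose by 0.61 ± 0.11 and 0.53 ± 0.10. The higher count was 3 without KI1 or WT2, and 4 without KI5 or WT6. The lower count was 2 without KI1, KI5, WT2 or WT4, and 4 without KI3.

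Readers, which bind modified histones or DNA, gave 3 higher (17.6%) and 1 lower (5.88%) of 17. Over all tested probe sets 14.9% were higher and 10.9% were lower, so the readers' 23.5% called was near the 25.9% of all. Brd3, a bromodomain protein, read 232, 252 and 243 in knock-in liver and 391, 398 and 393 in wild-type liver, a change of -0.67 ± 0.09 (adjusted p = 0.00205), and Bptf rose by 0.50 ± 0.10. Cbx2 and Phf20 rose by 0.89 ± 0.20 and 0.48 ± 0.12. The call of Cbx2 was lost without KI1, WT2 or WT6, and that of Phf20 without KI1, WT4 or WT6 (adjusted p up to 0.0849 for these genes). The readers called higher were then 1 without KI1 or WT6, and those called lower were 2 without KI3 or KI5. Genes that supply or use the enzymes' cofactors had more lower than higher calls, with 3 higher (20%) and 6 lower (40%) of 15 and a median of -0.22. Idh1, the cytosolic enzyme that makes 2-oxoglutarate, read 871, 1994 and 617 against 4586, 4621 and 4490, a change of -2.14 ± 0.37 (4.40-fold lower, adjusted p = 0.00587). KI3 was the highest of its group and still below all wild-type mice. Nmnat1, of nuclear NAD+ synthesis, changed by -0.995 ± 0.13 (adjusted p = 0.00218), and D2hgdh by -0.48 ± 0.10. Nnmt, which methylates nicotinamide and so uses rather than supplies a methyl donor, rose by 1.03 ± 0.09 (2.04-fold, adjusted p = 0.000568). Without KI1 the calls were 1 higher and 3 lower, and without WT2 they were 1 higher and 6 lower.

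Some markers of liver cell types also differed between the genotypes. The share called was 66.7% of sinusoidal endothelial, 10% of Kupffer cell, 60% of neutrophil, 33.3% of hepatocyte and 25% of stellate cell markers. It was 0% for cholangiocyte, 16.7% for lymphocyte, 33.3% for erythroid and 11.1% for dividing cell markers. Over all tested probe sets 25.9% were called, and each marker list is short. Sinusoidal endothelial markers gave 1 higher and 5 lower of 9, with summed levels of 5765 to 7572 in knock-in liver and 6913 to 7616 in wild-type liver. The lower count was 1 without KI1 or WT2 and 0 without WT6, and the higher count was 0 without KI5. Kupffer cell markers gave 0 higher and 1 lower of 10 (3375 to 5983 against 5029 to 8640), the lower one being Adgre1. The lower count was 0 without KI1, KI5, WT2 or WT4, 2 without KI3 or WT6, and the higher count was 1 without KI5. Neutrophil markers gave 3 higher of 5 (479 to 516 against 332 to 403), with 0 lower. The higher count was 2 to 3 with a mouse left out. Mmp9 lost its call without KI1, KI5, WT2 or WT4 (adjusted p = 0.051 to 0.0579), and S100a9 passed without WT2 (0.039). These markers were dim, and Retnlg read 34, 37 and 34 in wild-type liver. Hepatocyte markers gave 2 higher and 1 lower of 9 (113000 to 120981 against 108266 to 110958). The higher ones were Tat (mean 19135 against 12784) and Hnf4a (9039 against 5067), and the lower one was Asgr1. The rise of the sum came from Tat and Hnf4a. Only 4 of the 9 changes were above 0, with a median of -0.07. All 9 were above the filter on dim probe sets. The lower one was called in no fit that left out a mouse other than KI3, without which 2 were lower, and 1 was higher without KI1. Stellate cell markers gave 1 higher and 1 lower of 8 (7737 to 9137 against 6879 to 7845), with 3 lower without KI3. Most of that sum was the higher gene, Dcn, which read 6731, 6736 and 5978 against 4891, 4225 and 4704. The lower gene, Lrat, read 312, 441 and 247 against 876, 719 and 653. Only 2 of the 8 changes were above 0, with a median of -0.08, so the sum does not speak for the list.

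Cholangiocyte markers gave 0 calls of 4 with limma, and 0 at an unadjusted p below 0.05 (386 to 411 against 385 to 411). Lymphocyte markers gave 1 lower of 6 (509 to 549 against 558 to 630), and 2 without KI3. Erythroid markers gave 1 lower of 3 (314 to 435 against 473 to 612), and 0 without WT2 or WT6. Markers of dividing cells gave 1 higher of 9, Pcna (2214 to 2620 against 1757 to 1993 for the summed list), and 1 lower without KI3. The lowest intensity on any array was 7, so no marker read 0. The part of these cell types in the members' changes was not tested.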

How the data were processed

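Liver RNA of 3 knock-in and 3 wild-type mice was labelled with biotin and hybridised to 1-colour arrays, 1 per mouse, per the labels' protocols. The authors deposited 1 intensity per probe set and array, as whole numbers on a linear scale; probe summarisation, background correction and normalization are not given in the sources used here. No pair of arrays was identical. Columns were matched to mice by their sample identifiers. Names came from the platform's annotation table (21789 with 1 symbol, 1621 with several, 12102 unlisted), which can be old, and the 82 member probe sets matched RefSeq gene identifiers with 0 differing symbols.

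Array medians differed by 0.087 on the log2(value + 16) scale of the fit, under the limit of 0.1 for scaling. The deposited intensities were therefore used as they are. On the plain log2 scale the medians differed by 0.101, just over that limit, so the choice depended on the pseudocount. With arrays centred on their medians, 17 members were higher and 8 were lower. Values entered as log2(value + 16), probe sets with a mean below the 25th percentile were dropped, and limma 3.58.1 in R 4.3.3 (lmFit, eBayes with trend, two-sided, no covariate) was fitted to all 6 arrays, with Benjamini-Hochberg adjustment over 26634 probe sets. For a gene with several probe sets the brightest on average stood for it. Replicate errors are SD for intensities and SE for log2 changes. Arrays have no read depth, and their number limits the precision. Labels give separate mice and no batch. The fit was tested on simulated data.

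Values in every mouse are given for members called with at least 1.5-fold change, for the 4 uncalled members with the smallest p and for uncalled canonical members of each class; Sirt3 was added after its values were seen. For each list of other chromatin genes, up to 4 called genes with the smallest p are named. Members and lists (other writers and erasers, partner subunits, readers, cofactor supply or use, and the cell type markers) were chosen with earlier results of these data known. Alternatives tried were centring each array on its median, quantile normalization, pseudocounts of 1 and 64, a filter at the 50th percentile or none, eBayes without trend or with a robust prior, array weights, probe sets with 1 symbol only, the mean of a gene's probe sets, thresholds of 0.1 or of 1.5-fold, members acting on other substrates left out, and each mouse left out. Promoters were searched with Python 3.11.15. Protein sequences were not used here. Figures were drawn with matplotlib 3.10.9.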

Additional observations from a re-analysis of the deposited data

How the results depend on the processing

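No called change reversed under any alternative, and 20 of 27 calls held in all refits at the same threshold, where the lost calls are given at their genes. Besides the uncalled members named there, Ezh1 and Hdac8 passed with array weights, and Hdac8 also over probe sets with 1 symbol (adjusted p = 0.049). The writers' median was 0.042 with arrays centred, 0.052 with no filter and 0.143 without members acting on other substrates, and the erasers' -0.020 with arrays centred and 0.103 without such members. At 1.5-fold or more, 18 calls were left, Ehmt1, Kdm1a, Kat6b, Hdac4, Sirt5, Hdac2, Kmt2a, Kmt2c and Dnmt3b falling short: 5 members were lower, 6 writers higher and 1 writer lower, since that setting asks for a size. Leaving out each mouse, the writers' median ranged from 0.057 to 0.133 and the erasers' from 0.011 to 0.084. The number of probe sets called ranged from 4252 to 7728, at 4252 without KI1, 4478 without WT2 and 4551 without WT6. The other causes were not tested. No paired analysis was possible because the groups share no replicate numbers. Dim genes such as Suv39h2 are limited by signal over background.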
